A study of Homo sapiens with 8 samples.

Results

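The nuclear receptor genes other than those of the estrogen receptor alpha and the progesterone receptor were described in 2 HER2+ breast carcinoma cell lines, SKBR-3 and BT474m1. The set was fixed by gene symbol and listed 44 genes. Of these, 33 reached a normalised read count of 10 in any of the 8 libraries and were used, out of 14429 such genes among the 20531 in the tables. The study asked how inhibition of HER2 kinase activity and of the BET bromodomain proteins, alone and together, alters transcription in HER2+ cells. Polyadenylated RNA was sequenced from each line after 48 h, per the labels, with the solvent DMSO, with 300 nM lapatinib, which blocks the kinases EGFR and HER2, with 300 nM JQ1, which blocks the BET bromodomains, or with both drugs. All 8 cultures were in RPMI medium with 10% fetal bovine serum. Each group held 1 library, so there was no replicate error within a group and no test was run, and the differences below are between single libraries. Intervals after a log2 fold change are 95% exact Clopper-Pearson intervals from the reads recovered from the values, and cover counting error only.

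Nuclear receptors are transcription factors that carry a zinc finger domain for DNA and, in most, a pocket for a small lipophilic ligand such as a steroid, thyroid hormone, retinoic acid, vitamin D, an oxysterol or a fatty acid. Many bind DNA as heterodimers with a retinoid X receptor (RXR), and without ligand several of these pairs hold corepressors at their target genes. Others, the orphan receptors, have no known physiological ligand and act through their level. In mammary epithelium and its tumors the family is known for control by hormones, retinoids and vitamin D of proliferation and differentiation.

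Reads on genes ran from 21420114 to 34112378 per library, 1 read was worth 0.471 to 0.766 units, and the floor of 3 reads lay between 1.41 and 2.30 units. The labelled lines carried the markers of HER2+ epithelial cells: ERBB2, which encodes HER2, was between 94678 and 277872 in all 8 libraries, KRT18 was at 10734 or more, and PTPRC of leukocytes was at 3.38 or less. ESR1 was at 16.8 or less in the 4 SKBR-3 libraries and between 190 and 1827 in those of BT474m1. The BT474m1 libraries also held VIM, a gene of mesenchymal cells, at 204 to 657, against 2.06 or less in SKBR-3, and its part in the differences between the lines was not tested. The receptor genes made up 0.110% to 0.174% of the summed values of a library.

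The genes that were not used stayed near 0. NR1H4, NR1I2, NR2E1 and NR0B1 were listed at 0 in all 8 libraries, which allows up to 3 reads in each. The other 7, RORB, HNF4A, RXRG, NR2E3, NR5A1, NR5A2 and NR0B2, did not exceed 5.19, the value of RORB in BT474m1 with DMSO. The set of these 11 holds receptors known from liver, intestine, retina, adrenal gland and gonads.

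With DMSO, the level per kilobase of the canonical transcript was highest for NR2F6, an orphan receptor of the COUP-TF group, in both lines, at 1015 per kb in SKBR-3 and 1955 per kb in BT474m1. In SKBR-3 it was followed by the retinoic acid receptor gene RARA at 688 per kb, ESRRA, which encodes the estrogen-related receptor alpha of mitochondrial genes, at 686, RARG at 416 and RXRA at 319. In BT474m1 the order ran ESRRA at 542 per kb, the thyroid hormone receptor gene THRA at 497, VDR at 489, NR1D2 at 357 and NR2F2 at 353. VDR followed in SKBR-3 at 312 per kb, so that NR2F6, ESRRA and VDR were among the first 6 in both lines. Between the DMSO libraries, BT474m1 was at least 2-fold above SKBR-3 for 10 of the 33 genes, beside 26.8% of all genes, and at least 2-fold below it for 8 of 33, beside 15.6%. Differences of 4-fold or more were those of NR2F1, ESRRG, NR2F2, RORA, ESRRB, RARB and HNF4G on the side of BT474m1 and of NR4A3, NR1I3, PPARG, PPARA and NR1D1 on the side of SKBR-3. NR2F1, ESRRG, ESRRB, RARB and HNF4G reached the minimum of 10 only in BT474m1, and NR4A3 and NR1I3 only in SKBR-3. At a pseudocount of 10 the log2 differences of ESRRB, HNF4G and RARB were 0.96, 1.13 and 1.96, under 4-fold. Those of NR1I3 and NR1D1 were -1.8 and -1.92, also under 4-fold.

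**Figure D1:**
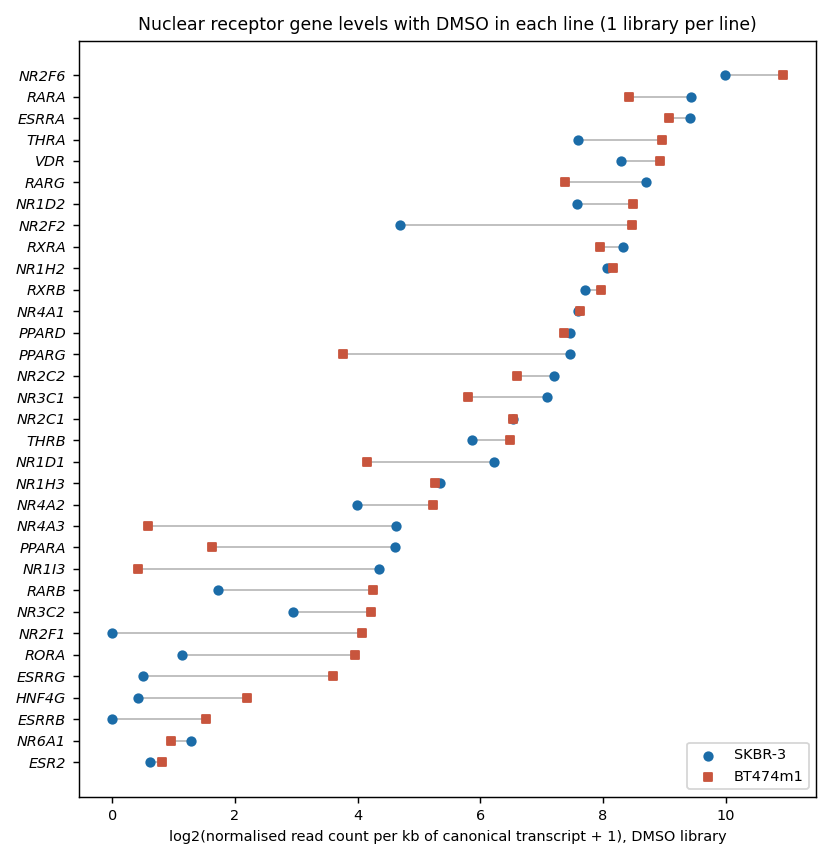
Levels of the 33 receptor genes in the DMSO library of each line, as log2 of the normalised read count per kb of canonical transcript plus 1 on the horizontal axis, with 1 row per gene and 1 point per library. NR2F6 is the highest in both lines, and NR2F2, PPARG, NR4A3 and NR2F1 show long bars between the lines.

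With lapatinib alone, the receptor genes past 2-fold had 1 name in common in the 2 lines in the same direction. Against DMSO in SKBR-3, RORA, HNF4G, NR2F2, NR1H3, THRB and NR3C2 were raised at least 2-fold, 6 of 33 beside 11.1% of all genes, and NR4A3, VDR and NR6A1 were lowered, 3 of 33 beside 9.44%. Among these HNF4G (9 reads against 2) and NR6A1 (5 against 14) had counting intervals that included no change. In BT474m1, ESRRG, ESR2, NR6A1, NR3C1, RARA and NR3C2 were raised, 6 of 33 beside 14.0%, and PPARG, NR2F1 and RARB were lowered, 3 of 33 beside 8.06%. At a pseudocount of 10 the BT474m1 changes of ESR2, NR6A1 and PPARG were under 2-fold, at 0.98, 0.82 and -0.85. So was that of NR3C2 in SKBR-3, at 0.93. The mineralocorticoid receptor gene NR3C2 was the 1 gene raised in both, 16.7% of either list of 6, whereas 634 of all genes were raised in both, 39.7% of those raised in SKBR-3 and 31.3% of those in BT474m1. None of the 3 lowered genes of each line was shared, beside 44% and 51.5% for all genes. The difference between the lines was not tested and depends on the threshold, since THRB changed by 1.17 in SKBR-3 and 0.62 in BT474m1, NR3C1 by 0.63 and 1.21, and NR1H3 by 1.19 and 0.55. The median log2 fold change of the receptor genes was 0.29 in SKBR-3 and 0.30 in BT474m1, beside 0.05 and 0.07 for all genes. A lower value per gene in such bulk RNA can come from fewer cells that express it or from less RNA per cell, and the sources cannot be told apart.

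With JQ1 alone no receptor gene was raised 2-fold in either line, beside 3.75% of all genes raised in SKBR-3 and 4.81% in BT474m1. The lowered genes were 6 of 33 in SKBR-3, beside 11.8%, and 9 of 33 in BT474m1, beside 11.8%. THRA, NR1D1, PPARG, HNF4G and ESRRG were lowered in both, 5 genes that form 83.3% of the SKBR-3 list and 55.6% of the BT474m1 list. For all genes, 766 were lowered in both, which is 44.8% and 45% of the lists. In SKBR-3, HNF4G and ESRRG went from 2 and 3 reads to 0, at or under the floor, and carry no information, so that 3 of the shared genes rest on reads in both lines. Of these 3, NR1D1 in BT474m1 was at the threshold. It was under 2-fold with median-of-ratios scaling, at -0.96, and at a pseudocount of 10, at -0.78. NR1I3 was lowered in SKBR-3 and NR2F1, RARG, PPARA and NR4A1 in BT474m1. The medians were -0.15 for the receptor genes and -0.08 for all genes in SKBR-3, and -0.34 and -0.06 in BT474m1.

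With both drugs against DMSO, SKBR-3 had 7 of 33 receptor genes raised, beside 10.8% of all genes, namely NR2F2, NR1D2, NR3C2, RORA, PPARA, NR3C1 and NR1H3. NR1I3, THRA, PPARG, NR4A3, NR1D1 and VDR were lowered, 6 of 33 beside 20.8%. In BT474m1 only NR3C2 and NR1D2 were raised, 2 of 33 beside 14.2%, and HNF4G, PPARG, NR2F1, ESRRG, NR1D1 and THRA were lowered, 6 of 33 beside 15.3%. NR3C2 and NR1D2 were also among the 7 raised in SKBR-3, or 28.6% of that list and 100% of the other, beside 41.2% and 31.4% for all genes. THRA, PPARG and NR1D1 were lowered in both lines, which is 50% of each list of 6. The change of NR1D1 in BT474m1 was -1.12, and -0.86 at a pseudocount of 10. For all lowered genes the share was 42.8% of the SKBR-3 list and 58.3% of the BT474m1 list. The comparisons of lapatinib, JQ1 and both drugs use the same DMSO library in each line and are not independent of each other. Against lapatinib alone, both drugs raised 3 of 33 in SKBR-3, beside 3.22%, and 1 in BT474m1, beside 5.2%, and lowered 5 in SKBR-3, beside 16.2%, and 8 in BT474m1, beside 12.5%. The 4 lowered in both lines were THRA, NR1D1, PPARG and HNF4G, the last on 9 reads or fewer in SKBR-3. They form 80% of the SKBR-3 list and 50% of the BT474m1 list, beside 38.9% and 50.4% for all genes. At a pseudocount of 10 in place of 1 the lowered counts were 3 in SKBR-3 and 5 in BT474m1. There NR1D1 was at -0.99 in SKBR-3 and -0.96 in BT474m1, PPARG in BT474m1 at -0.75 and HNF4G in SKBR-3 at -0.66. Of the 4 shared genes only THRA stayed past 2-fold in both lines, at -2.22 and -1.4. With median-of-ratios scaling NR1D1 in SKBR-3 was at -0.9.

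**Figure D2:**
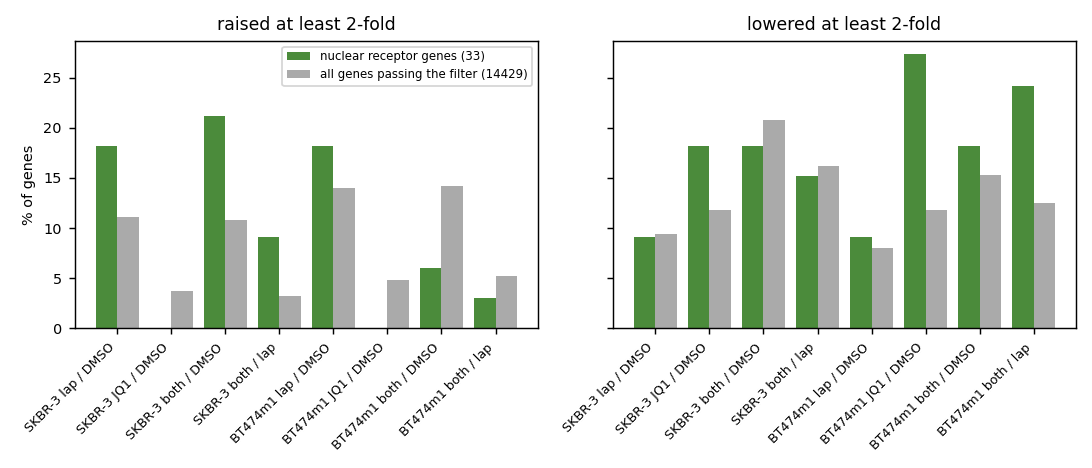
Percent of genes raised (left) and lowered (right) at least 2-fold in each comparison within a line, with green bars for the 33 receptor genes and grey bars for the 14429 genes that passed the same minimum. With JQ1 against DMSO the receptor bars are at 0 for raised genes in both lines and at 18.2% and 27.3% for lowered genes, beside grey bars of 11.8%. The 18.2% of SKBR-3 counts HNF4G and ESRRG, which went from 2 and 3 reads to 0 and carry no information.

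**Figure D3:**
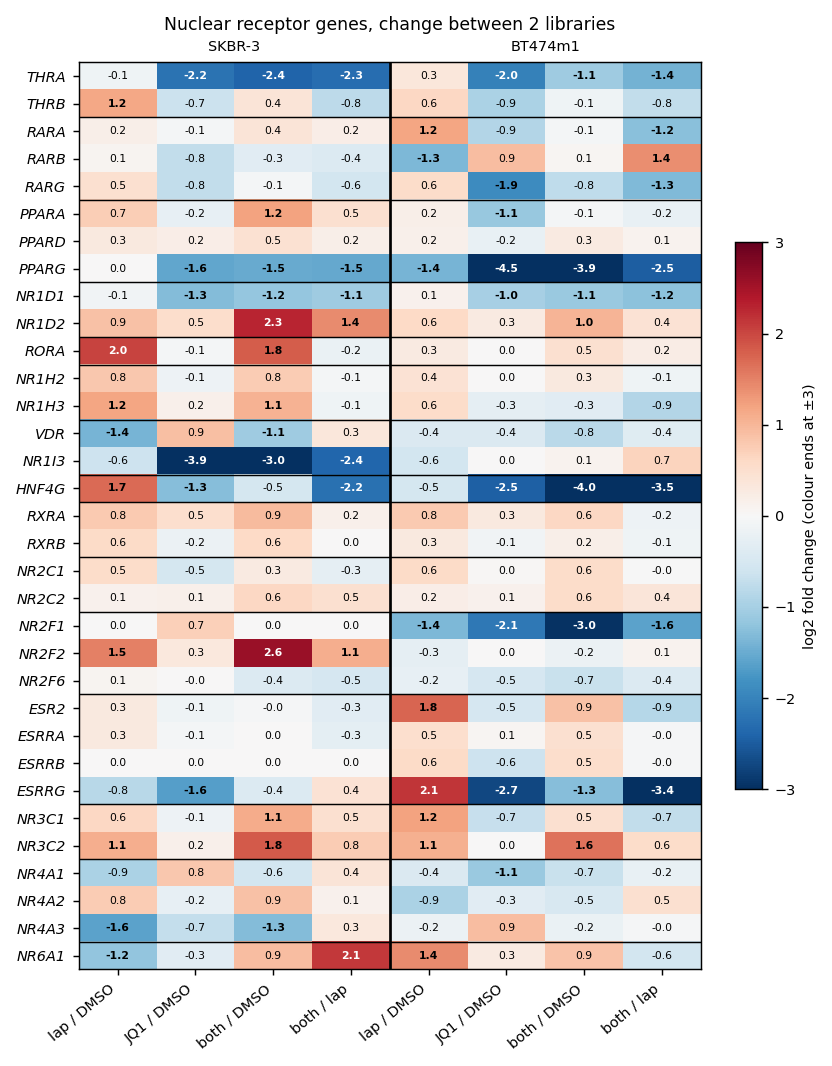
Log2 fold change of the 33 receptor genes in the 4 comparisons of each line, in rows ordered by receptor group with thin lines between groups. Red marks a higher and blue a lower value in the first-named library, the number is printed in each cell and is bold at 2-fold or more, and THRA, PPARG and NR1D1 are blue in the JQ1 columns of both lines.

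THRA encodes the thyroid hormone receptor alpha, and had normalised read counts in SKBR-3 of 1004 with DMSO, 913 under lapatinib, 217 under JQ1 and 187 under both drugs. In BT474m1 the values were 2584, 3299, 635 and 1243, in the order used for all values below. The JQ1 library was thus below the DMSO library by a log2 fold change of -2.21 (-2.39 to -2.04) in SKBR-3 and of -2.02 (-2.11 to -1.94) in BT474m1, and in both lines the libraries with JQ1 lay below those without it. With both drugs against lapatinib the change was -2.28 in SKBR-3 and -1.41 in BT474m1. THRB, the gene of the beta receptor, was at 435, 979, 277 and 570 in SKBR-3 and at 671, 1031, 347 and 613 in BT474m1. It was raised by lapatinib in SKBR-3 with a log2 fold change of 1.17 (1.03 to 1.31), and was under 2-fold in the other comparisons, with the JQ1 library lowest in each line.

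NR1D1 encodes REV-ERB alpha, a heme-binding repressor of the circadian clock. Its values were 194, 181, 78.3 and 86.3 in SKBR-3 and 43.9, 47.8, 21.4 and 19.7 in BT474m1, again with the JQ1 libraries below the others. The log2 fold change with JQ1 was -1.3 (-1.64 to -1.0) in SKBR-3 and -1.0 (-1.60 to -0.51) in BT474m1. The latter lies at the threshold, was -0.96 with median-of-ratios scaling, and at a pseudocount of 10 was -0.78. In the GENCODE v44 annotation NR1D1 and THRA are on opposite strands of chromosome 17 and share 473 exon bases, 18% of the exon bases of NR1D1 and 6.45% of those of THRA. The labels name a stranded kit in one field and an unstranded one in another, so reads from the shared bases cannot be told apart. NR1D1 was 19.4% of the THRA value in SKBR-3 with DMSO and 36.1% with JQ1, and 1.70% and 3.37% in BT474m1. On chromosome 17 the annotation runs from ERBB2 to THRA with 9 coding genes between, to NR1D1 with 10 and to RARA with 17. ERBB2 itself was at 112656 with DMSO and 154570 with JQ1 in SKBR-3, and at 95962 and 94678 in BT474m1.

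PPARG encodes the peroxisome proliferator-activated receptor gamma, which drives lipid storage genes. In SKBR-3 its values were 311, 311, 104 and 107, with the pair without JQ1 above the pair with it and little between the members of a pair. The change with JQ1 was -1.57 (-1.85 to -1.32). In BT474m1 the values were 22.2, 7.83, 0 and 0.583, which are 47, 13, 0 and 1 reads. Against DMSO, the library with JQ1 was at least 15.3-fold lower, computed against the floor of 3 reads in that library, and the library with both drugs was 38.0-fold lower on 1 read, with an interval of the log2 change from -10.58 to -2.70.

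The bases upstream of the 5 genes that both drugs took past 2-fold against DMSO, in the same direction in both lines, THRA, NR1D1 and PPARG among the lowered and NR1D2 and NR3C2 among the raised, are shown so that they can be compared. Each is the 250 bases before the annotated start, 5′ to 3′ on the strand of the gene, from RefSeq on GRCh38.p14, with any searched motif in capitals.
THRA, chr17:40062715-40062964, plus strand: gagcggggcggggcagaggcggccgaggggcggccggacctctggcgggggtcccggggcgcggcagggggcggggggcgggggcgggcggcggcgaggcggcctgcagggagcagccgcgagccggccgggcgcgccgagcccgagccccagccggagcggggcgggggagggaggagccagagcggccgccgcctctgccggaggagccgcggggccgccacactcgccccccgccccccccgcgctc
NR1D1, chr17:40100590-40100839, minus strand: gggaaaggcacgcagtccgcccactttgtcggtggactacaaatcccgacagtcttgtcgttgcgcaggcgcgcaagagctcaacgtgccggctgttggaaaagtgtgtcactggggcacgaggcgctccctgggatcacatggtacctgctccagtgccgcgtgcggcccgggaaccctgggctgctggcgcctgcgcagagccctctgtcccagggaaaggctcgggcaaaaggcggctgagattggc
PPARG, chr3:12287118-12287367, plus strand: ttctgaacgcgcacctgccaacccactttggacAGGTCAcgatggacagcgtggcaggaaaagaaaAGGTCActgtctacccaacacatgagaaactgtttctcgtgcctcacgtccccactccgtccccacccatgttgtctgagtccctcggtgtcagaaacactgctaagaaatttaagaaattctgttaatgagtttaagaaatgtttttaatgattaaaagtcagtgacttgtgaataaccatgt
NR1D2, chr3:23945036-23945285, plus strand: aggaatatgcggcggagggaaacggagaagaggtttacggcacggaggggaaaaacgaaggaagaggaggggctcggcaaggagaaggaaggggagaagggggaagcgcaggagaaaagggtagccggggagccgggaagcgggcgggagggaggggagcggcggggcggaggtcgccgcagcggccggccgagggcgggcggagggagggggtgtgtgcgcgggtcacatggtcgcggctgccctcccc
NR3C2, chr4:148442415-148442664, minus strand: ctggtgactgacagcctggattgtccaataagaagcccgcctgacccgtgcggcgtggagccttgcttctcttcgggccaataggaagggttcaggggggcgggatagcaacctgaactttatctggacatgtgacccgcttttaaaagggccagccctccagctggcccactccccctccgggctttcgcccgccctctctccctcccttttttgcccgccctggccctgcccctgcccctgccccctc
The motifs searched, on both strands, were AGGTCA, the core that many nuclear receptors bind, the forkhead motifs GTAAACA and GTCAACA, and CACGTG, the E box. No 2 of these overlap each other in the bases shown. PPARG held AGGTCA at 217 and at 184 bases before the start, and the other 4 sequences held none of the 4 motifs. Of the 33 genes used, 29 had an entry. AGGTCA was in 3 of the 29 (PPARG, NR1H3 and RARA), or 10.3%, and in 12.1% of all 27305 promoters. GTCAACA was in NR4A1 and RORA, 6.90% beside 2.03%. CACGTG was in NR2C1 and NR2F2, 6.90% beside 6.49%, and GTAAACA in 0 of 29 beside 2.98%. A single entry was kept per gene, and bases before other starts were not searched. The NR2F2 bases read as codons of its own zinc finger domain, so the share for CACGTG includes a stretch inside that gene. The GC content was 87.2% for THRA, 64.8% for NR1D1, 44.8% for PPARG, 70.4% for NR1D2 and 63.6% for NR3C2. A match is a run of letters and not a site of binding.

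NR1D2, the gene of REV-ERB beta, went the other way from its paralog NR1D1. Its values were 1001, 1835, 1439 and 4870 in SKBR-3 and 1866, 2812, 2256 and 3792 in BT474m1. Both drugs together gave the highest value in each line. The log2 fold change with both drugs was 2.28 (2.20 to 2.37) in SKBR-3 and 1.02 (0.97 to 1.08) in BT474m1, while with either drug alone the gene was under 2-fold in both lines. RORA, which encodes an activator that binds the same DNA element as the REV-ERBs, was at 12.9, 55.1, 12.2 and 48.2 in SKBR-3, with the libraries with lapatinib above those without it. Its change with lapatinib was 2.02 (1.34 to 2.93). In BT474m1 it was at 158, 190, 159 and 222, under 2-fold throughout and above each of the SKBR-3 values.

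The corticosteroid receptor genes were both higher with lapatinib. NR3C2, of the mineralocorticoid receptor, was at 38.7, 82.7, 43.2 and 141 in SKBR-3 and at 102, 214, 103 and 315 in BT474m1. The order of the 4 libraries was the same in both lines, with both drugs highest, lapatinib next and JQ1 close to DMSO. The log2 fold change was 1.08 (0.61 to 1.60) and 1.07 (0.83 to 1.33) with lapatinib, and 1.84 (1.43 to 2.33) and 1.62 (1.40 to 1.86) with both drugs. At a pseudocount of 10 the change with lapatinib in SKBR-3 was 0.93. NR3C1, of the glucocorticoid receptor, was at 917, 1422, 825 and 1974 in SKBR-3 and at 372, 861, 228 and 520 in BT474m1. It passed 2-fold with both drugs in SKBR-3, at 1.11 (1.01 to 1.2), and with lapatinib in BT474m1, at 1.21 (1.08 to 1.34). JQ1 gave the lowest value of NR3C1 in each line.

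**Figure D4:**
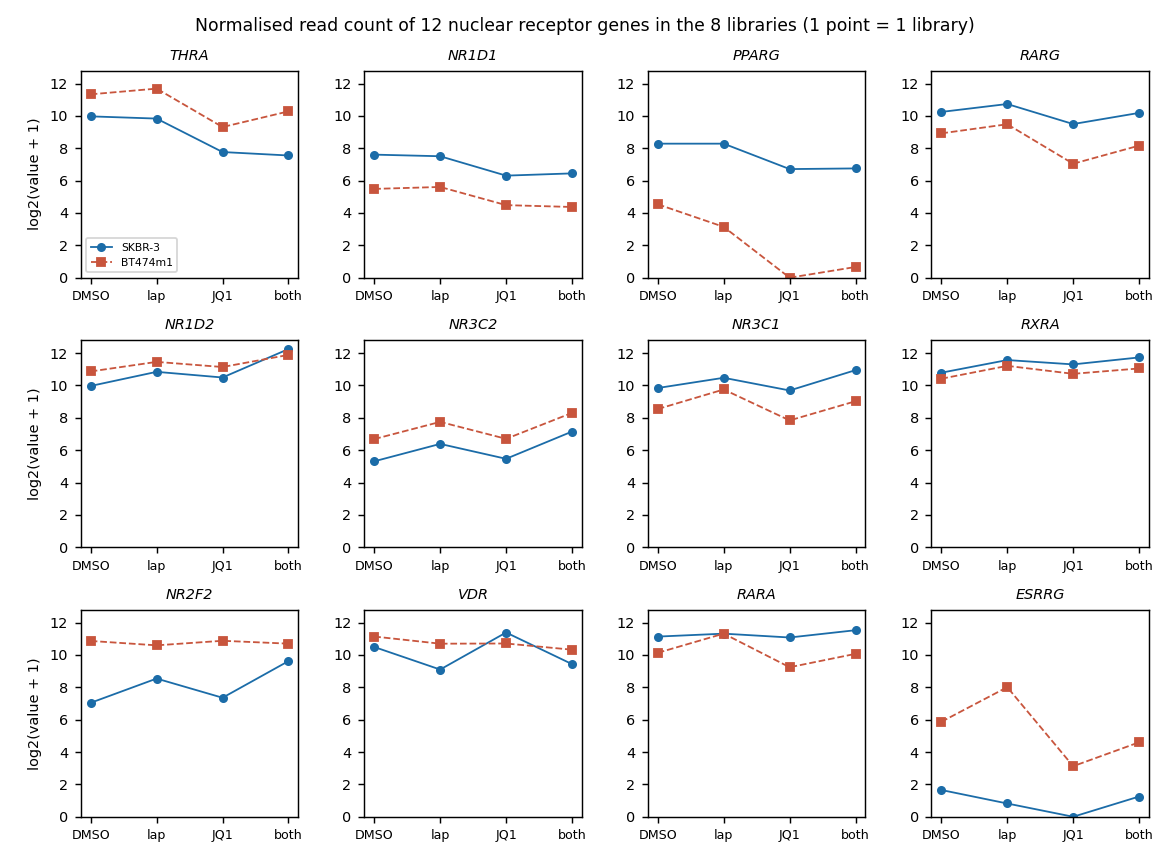
Normalised read count of 12 receptor genes, as log2 of the value plus 1, by treatment (lap is lapatinib, both is lapatinib with JQ1), with circles for SKBR-3 and squares for BT474m1 and 1 point per library. THRA, NR1D1 and PPARG are lower in the libraries with JQ1 in both lines, NR3C2 has the same order of libraries in both, and NR2F2 differs between the lines.

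The retinoic acid receptor genes changed in BT474m1 and not in SKBR-3 by the 2-fold rule, and the difference between the lines was not tested. RARA was at 2252, 2554, 2166 and 2961 in SKBR-3 and at 1123, 2557, 605 and 1075 in BT474m1. In BT474m1 it was raised by lapatinib, with a log2 fold change of 1.19 (1.12 to 1.26), and the library with both drugs was below that with lapatinib by a change of -1.25 (-1.33 to -1.17). RARG was at 1214, 1705, 722 and 1165 in SKBR-3 and at 484, 716, 131 and 286 in BT474m1. With JQ1 its change was -1.88 (-2.09 to -1.69) in BT474m1 and -0.75 in SKBR-3, where the JQ1 library was also the lowest of the 4. RARB, itself a target of retinoic acid, was at 7.66 or less in SKBR-3 and at 56.6, 21.7, 108 and 58.9 in BT474m1. There lapatinib lowered it, with a change of -1.34 (-1.96 to -0.84), and the JQ1 library was the highest.

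The retinoid X receptors are the shared partners of many of these receptors. RXRA was at 1768, 3041, 2524 and 3402 in SKBR-3 and at 1366, 2370, 1685 and 2121 in BT474m1, with the libraries with lapatinib above both others in each line but under 2-fold. RXRB ran from 532 to 907 over the 8 libraries and RXRG did not exceed 1.81. The retinoid X receptor RNA was thus mainly that of RXRA and RXRB.

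Of the other peroxisome proliferator-activated receptors, PPARA, which drives fatty acid oxidation genes, was at 236, 396, 200 and 548 in SKBR-3 and at 21.2, 24.1, 9.18 and 20.4 in BT474m1. It was raised by both drugs in SKBR-3, with a change of 1.21 (1.03 to 1.40), and lowered by JQ1 in BT474m1 on 19 reads against 45, with a change of -1.13 (-2.07 to -0.41) that was -0.70 at a pseudocount of 10. PPARD ran from 516 to 906 and did not pass 2-fold.

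The liver X receptors bind oxysterols and control cholesterol export and fatty acid synthesis. NR1H3, of LXR alpha, was at 73.7, 170, 82.5 and 154 in SKBR-3 and at 69.3, 102, 57.5 and 54.3 in BT474m1. It was raised in SKBR-3 with lapatinib, at 1.19 (0.86 to 1.56), and with both drugs, at 1.05 (0.72 to 1.41). The value with both drugs was 0.97 under equal totals scaling and under a pseudocount of 10. NR1H2, of LXR beta, ran from 582 to 1132 and was under 2-fold throughout. It shares 22.1% of its exon bases with NAPSA on the other strand.

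VDR, the gene of the vitamin D receptor, was at 1442, 548, 2683 and 692 in SKBR-3 and at 2257, 1661, 1675 and 1284 in BT474m1. In SKBR-3 lapatinib lowered it, with a log2 fold change of -1.39 (-1.52 to -1.27), and it stayed lower with both drugs, at -1.06 (-1.17 to -0.95), although the JQ1 library held the highest value. The latter change was -0.91 under median-of-ratios scaling. BT474m1 values were under 2-fold from DMSO, with both drugs lowest. NR1I3, of the constitutive androstane receptor, was at 26.5, 17.0, 0.805 and 2.43 in SKBR-3, or 37, 22, 1 and 4 reads, and at 0.583 or less in BT474m1. Its change with JQ1 in SKBR-3 was -3.93 on 1 read, with an interval from -10.70 to -2.79, and 20.4% of its exon bases are shared with TOMM40L on the other strand.

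Among the COUP-TF group, NR2F2, which represses many genes in stroma and epithelium, was low in SKBR-3 and high in BT474m1. The SKBR-3 values were 131, 372, 163 and 787, all below those of BT474m1, which were 1868, 1548, 1882 and 1664. In SKBR-3 the log2 fold change was 1.5 (1.26 to 1.76) with lapatinib and 2.58 (2.36 to 2.82) with both drugs, the widest rise of any of the 33 genes with both drugs. In BT474m1 the changes were -0.27 and -0.17. NR2F1, its paralog, was at 0.644 or less in SKBR-3 and at 61.3, 23.5, 13 and 7.0 in BT474m1, lowered by each treatment there, with both drugs lowest at a change of -2.96 (-4.12 to -2.28). With DMSO, BT474m1 was at least 28.5-fold above SKBR-3 for NR2F1. NR2F6 lay between 1811 and 2576 in SKBR-3 and between 2938 and 4660 in BT474m1, under 2-fold within each line.

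Estrogen-related receptors have no estrogen as ligand and act on mitochondrial and oxidative genes. ESRRG was at 57.5, 257, 7.73 and 23.3 in BT474m1 and at 2.15 or less, 3 reads or fewer, in SKBR-3. Lapatinib raised it in BT474m1 by a log2 fold change of 2.14 (1.86 to 2.46), the change with JQ1 was -2.74 (-3.75 to -2.14), and that of both drugs against lapatinib was -3.40 (-3.97 to -2.99). ESRRA ran from 1233 to 1910 over the 8 libraries and was under 2-fold in all comparisons, and ESRRB was 0 in the SKBR-3 libraries and 5.80 to 14.5 in those of BT474m1. ESR2, of the estrogen receptor beta, did not exceed 19.9, its value in BT474m1 with lapatinib on 33 reads, against 11 with DMSO. The ESR1 gene itself went from 840 to 1827 with lapatinib and to 190 with JQ1 in that line.

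The NR4A genes are immediate early genes whose products act without a known ligand. NR4A1 was at 478, 248, 833 and 324 in SKBR-3 and at 490, 361, 225 and 310 in BT474m1. With JQ1 the change was 0.80 in SKBR-3, the highest of its 4 libraries, and -1.12 (-1.28 to -0.96) in BT474m1, the lowest of its 4. NR4A3 was at 133, 42.9, 81.2 and 53.7 in SKBR-3, lowered by lapatinib with a change of -1.61 (-2.09 to -1.2), and at 6.28 or less in BT474m1. NR4A2 ran from 43.2 to 126 and was under 2-fold in the drug comparisons made.

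The remaining genes had low or steady values. HNF4G, of hepatocyte nuclear factor 4 gamma, did not exceed 6.89 in SKBR-3, and was at 15.1, 10.2, 1.93 and 0 in BT474m1, or 32, 17, 4 and 0 reads. Its library with both drugs was at least 8.62-fold below DMSO there. NR6A1, the germ cell nuclear factor gene, did not exceed 19.9, and its opposite calls with lapatinib in the 2 lines rest on 14 reads or fewer in 3 of 4 libraries. NR2C1 ran from 260 to 554 and NR2C2 from 811 to 1874. They encode the testicular receptors and were under 2-fold in all comparisons, and NR2C2 shares 60.5% of its exon bases with MRPS25 on the other strand.

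The genes around the receptors were taken as 10 lists, of 101 distinct genes, of which 89 passed the same minimum. With JQ1 none of the 18 coactivators and none of the 12 corepressors passed 2-fold in either line, beside 3.75% and 4.81% of all genes raised and 11.8% lowered in each. With both drugs against DMSO, 1 coactivator gene was raised in each line, PNRC1, at 1.93 in SKBR-3 and 2.31 in BT474m1, beside 10.8% and 14.2% of all genes. The lowered coactivators were PPARGC1B, PRMT1 and PPRC1 in SKBR-3, 3 of 18 beside 20.8%, and PPRC1 in BT474m1, 1 of 18 beside 15.3%. PPRC1, of the PGC-1 family, changed by -1.33 and -1.27. HR, the hairless corepressor of thyroid hormone and vitamin D receptors, was lowered in both by changes of -1.48 and -2.11, and LCOR was raised in SKBR-3, at 1.14. With both drugs the coactivators had a median of 0.20 in SKBR-3 and of -0.24 in BT474m1, and the corepressors of 0.20 and -0.16, where the medians of all genes were -0.08 and 0.

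The next lists hold genes that retinoic acid receptors act on, or that carry and convert retinoids. Of the 9 RAR target genes 5 passed the minimum, and with JQ1 SKBR-3 had 4 lowered and 1 raised, RARRES1 on 3 reads against 0, and BT474m1 had all 5 lowered, where 11.8% of all genes were lowered in either line. Of all genes, 3.75% were raised in SKBR-3 and 4.81% in BT474m1. CRABP2, which carries retinoic acid to its receptor, was at 254, 477, 72.8 and 37.8 in SKBR-3 and at 1068, 643, 171 and 183 in BT474m1, and its change with both drugs against DMSO was -2.72 and -2.54. RARRES3 was at 36.5, 109, 11.6 and 53.0 in SKBR-3 and at 33.5, 120, 1.45 and 14.6 in BT474m1. Lapatinib raised it in both lines, by 1.56 and 1.81, and JQ1 lowered it in both, by changes of -1.57 and -3.82. Of the 15 genes of retinoid handling, 11 passed, and with JQ1 5 were lowered in SKBR-3 and 6 in BT474m1, with 0 and 1 raised, beside the same 11.8% lowered and the same 3.75% and 4.81% raised. With lapatinib the list had 4 raised and 0 lowered in SKBR-3, at a median of 0.82, and 0 raised and 5 lowered in BT474m1, at -0.75, beside 11.1% raised and 9.44% lowered of all genes in SKBR-3 and 14.0% and 8.06% in BT474m1. The difference between the lines was not tested, and at a pseudocount of 10 the 5 lowered became 1. DHRS3, a retinal reductase, changed by -1.03 and -2.11 with JQ1. With both drugs against DMSO it was raised in SKBR-3, at 1.32, and was at 0.65 in BT474m1. In that comparison 2 of the 11 were lowered in SKBR-3 and 8 in BT474m1, beside 20.8% and 15.3% of all genes. ALDH1A3, which makes retinoic acid, changed by -1.88 and -2.14 with both drugs against lapatinib. CRABP2, DHRS3 and STRA6 stand in both lists.

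Of the 7 LXR target genes all passed the minimum, and both drugs raised 4 of them against DMSO in each line, with medians of 1.15 in SKBR-3 and 1.36 in BT474m1, where 10.8% and 14.2% of all genes were raised. SCD was lowered in BT474m1, and APOE, raised there, was at 7.0 or less in that line. ABCA1, the cholesterol exporter, was at 19.3, 100, 12.9 and 94.1 in SKBR-3 and at 212, 931, 482 and 1369 in BT474m1, with changes of 2.23 and 2.68 with both drugs. MYLIP, which marks the LDL receptor for degradation, had changes of 2.48 and 2.11. SREBF1, the regulator of fatty acid synthesis, changed by 1.92 and 1.47 with JQ1. With lapatinib 1 of the 7 was raised in SKBR-3 and 2 in BT474m1, where SCD was lowered, with a change of -2.97, beside 11.1% and 14.0% of all genes raised. With JQ1 2 and 4 were raised, beside 3.75% and 4.81%.

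Of the 10 PPAR target genes, 8 passed. JQ1 lowered 4 of the 8 in SKBR-3 and 2 in BT474m1, beside 11.8% of all genes in each, and raised none, beside 3.75% and 4.81%. Lapatinib raised 4 and lowered 2 in SKBR-3, beside 11.1% and 9.44%, and raised 0 and lowered 1 in BT474m1, beside 14.0% and 8.06%. With both drugs against DMSO, SKBR-3 had 1 raised, PDK4, and 2 lowered, beside 10.8% and 20.8%. BT474m1 had 0 raised and 2 lowered, beside 14.2% and 15.3%. PLIN2, which coats lipid droplets, was at 118, 23.0, 20.6 and 3.44 in SKBR-3 and at 601, 555, 327 and 280 in BT474m1, and its changes with both drugs were -4.75 and -1.10. Of the 5 clock genes that REV-ERBs and RORs control, NPAS2 was lowered in both lines with both drugs against lapatinib, by -2.04 and -2.03. Of all genes, 16.2% were lowered in SKBR-3, 12.5% in BT474m1 and 6.31% in both. NPAS2 was at 119, 283, 124 and 68.1 in SKBR-3, where lapatinib alone raised it, by 1.24. In BT474m1 it was at 187, 154, 49.8 and 36.7, where JQ1 alone lowered it, by a change of -1.89. The other clock genes did not pass 2-fold in both lines. None of the 8 ERR target genes was raised in any drug comparison, beside 3.22% to 14.2% of all genes. CYCS, SDHB and ATP5B were lowered with both drugs in SKBR-3, at a list median of -0.89, and none in BT474m1, at -0.34, beside 20.8% and 15.3% of all genes.

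**Figure D5:**
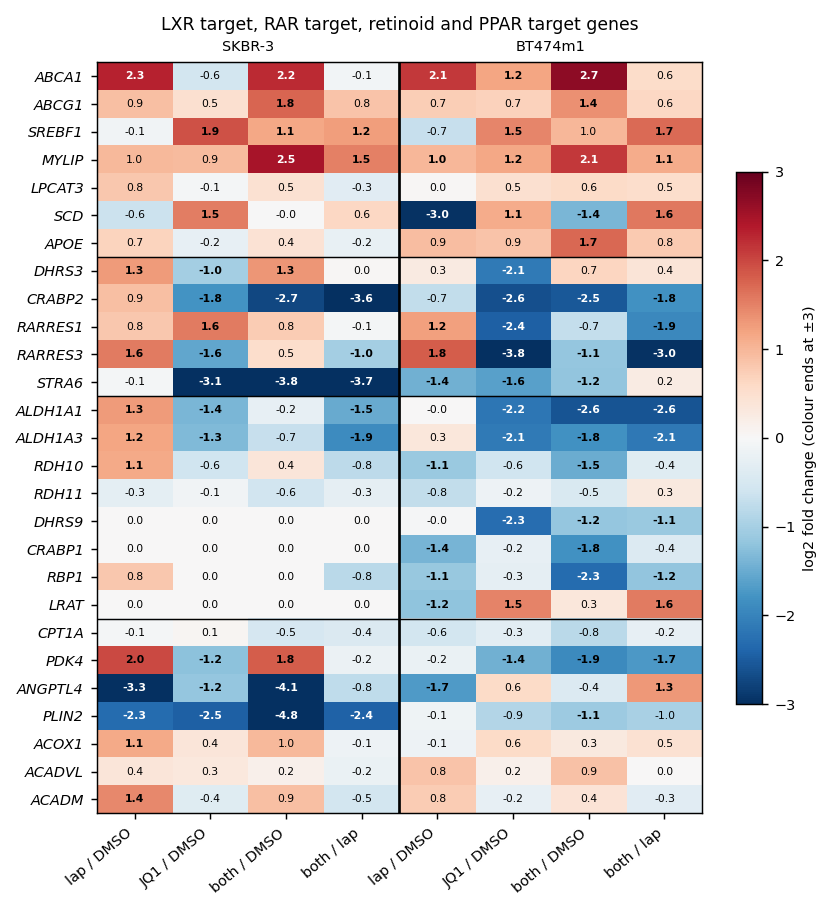
Log2 fold change of LXR target, RAR target, further retinoid handling and 7 PPAR target genes, from top to bottom with lines between the lists, in the 4 comparisons of each line. CRABP2, RARRES3 and STRA6 are blue in the JQ1 columns of both lines, and ABCA1 and MYLIP are red with both drugs in both lines.

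Of the 10 glucocorticoid receptor target genes 9 passed, and these went in both directions. With both drugs against DMSO, SKBR-3 had 1 raised and 1 lowered, and BT474m1 had 2 raised and 3 lowered, beside 10.8% and 20.8% of all genes in the former and 14.2% and 15.3% in the latter. MT2A, a metallothionein, was lowered by lapatinib in both lines, by changes of -1.41 and -1.71, and the library with both drugs lay above that with lapatinib, by 1.84 and 1.41. Its reads may be divided with near-identical metallothionein copies, so its values are uncertain. Lapatinib raised TSC22D3 in SKBR-3, where it lowered FKBP5 with a change of -2.28, and raised PER1 in BT474m1. Of the 12 genes of hormone and vitamin D handling 9 passed. HSD11B2, which inactivates cortisol and so shields the mineralocorticoid receptor, was at 109, 299, 69.6 and 43.3 in SKBR-3 and at 53.3, 121, 36.2 and 43.1 in BT474m1. It was raised by lapatinib in both lines, at 1.45 and 1.17, and was lowered in the library with both drugs relative to lapatinib, by changes of -2.76 and -1.47. In that list lapatinib raised 2 genes in SKBR-3, and 3 were lowered. In BT474m1 3 genes were raised and 3 lowered. Of all genes, 11.1% were raised and 9.44% lowered in the former, and 14.0% and 8.06% in the latter. Over the 89 genes together, SKBR-3 had 6 raised and 13 lowered by JQ1, and BT474m1 had 7 and 14, beside 3.75% and 4.81% of all genes raised and 11.8% lowered in each line. Lapatinib gave 15 raised and 9 lowered in SKBR-3, and 9 and 12 in BT474m1, beside 11.1% and 9.44% of all genes in SKBR-3 and 14.0% and 8.06% in BT474m1. The 12 lowered became 4 with a pseudocount of 10 and 7 with a minimum of 100.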

How the data were processed

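RNA with a poly(A) tail from 8 cultures of SKBR-3 and BT474m1 cells was sequenced by the study, with 1 library per group, and groups were taken from the labels. Treatment time follows the labels, and a figure legend of the study gives the same time, though its methods give a shorter one for cell lines. The authors deposited a signal for each gene, an RSEM estimate of its reads scaled to an upper quartile of 1000 among genes above 0. The submitters' processing notes name the build hg19, Picard 1.88, SAMtools 1.2, RSEM, DESeq, DESeq2 1.12.3 and R 3.2.2, whereas the study's methods name hg38, so no coordinates of the tables were used. The strand of counting is unknown, since the labels name both a stranded and an unstranded kit.

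The analysis used numpy 2.4.6 and scipy 1.17.1, pandas 2.3.3, and matplotlib 3.10.9 under Python 3.11.15. The value of 1 read was recovered as the common step between values, and 83.8% to 85.2% of the values above 0 were whole reads within 0.02 of a read. This is short of nearly all, and no count test was run. Genes that reached 10 in any library were kept. Changes are differences on the log2(value + 1) scale, called raised or lowered at 2-fold or more. This scale understates the change of low genes. Intervals are 95% exact Clopper-Pearson intervals on the recovered reads, and since reads were not tied to molecules by identifiers, intervals and floors cover counting error only. A fold against a library at 0 was computed against the floor of 3 reads per library.

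Receptor genes that reached 100 in any library and passed 2-fold in a drug comparison, or 4-fold between the lines, were given in full, and the others by range, with a few added for their group. Genes of the 10 lists were named where they reached 100 in a library of each line and passed 2-fold in the same direction in both, up to 3 per list and direction, except 1 gene that is not reported here, and some others, such as SCD, STRA6, CYCS, SDHB, ATP5B, TSC22D3, PER1, FKBP5, LCOR, PPARGC1B and PRMT1, were named after their values were seen. The lists were coactivators, corepressors, retinoid handling, hormone and vitamin D handling, and the targets of the glucocorticoid receptor, LXR, RAR, PPAR, REV-ERB and ROR, and ERR. The receptor set and the lists were chosen with earlier results of these data known. Lengths and overlaps came from GENCODE v44 and promoters from RefSeq on GRCh38.p14. The computation was tested on simulated data. Alternatives tried were a pseudocount of 10, median-of-ratios and equal totals scaling, no minimum or a minimum of 100, and calls that also required the interval to leave out no change.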

Additional observations from a re-analysis of the deposited data

Results flagged for a closer look

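The changes of 3 receptor genes went one way in the library of SKBR-3 and the other way in that of BT474m1 under the same treatment, with at least 1 of the changes past 2-fold, a value that reached 100 somewhere among the 8 libraries, and counting intervals of both changes that excluded 0. Other genes, NR6A1 with lapatinib among them, had opposite signs but did not meet these limits. The difference between the lines was not tested. On the log2 scale, the change of NR2F2 with lapatinib was 1.5 in SKBR-3 and -0.27 in BT474m1, and that with both drugs against DMSO was 2.58 and -0.17. NR4A1 changed by 0.80 with JQ1 in SKBR-3 and by -1.12 in BT474m1. With both drugs against lapatinib, RARA had a change of 0.21 in SKBR-3 and of -1.25 in BT474m1.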

How the results depend on the processing

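No paired analysis was possible because the groups compared hold 1 library each and share fewer than 2 replicate numbers, and for the same reason no replicate could be left out. A fit with the line as a block was not run. Of the 89 receptor gene changes past 2-fold, 88 were still past it with equal totals scaling, 86 with median-of-ratios scaling and 71 with a pseudocount of 10, and 0 changed sign in any of these. Among the counts of receptor genes, those lowered with both drugs against lapatinib went in SKBR-3 from 5 to 3 with a pseudocount of 10 and to 3 with a minimum of 100, and in BT474m1 from 8 to 5 with a pseudocount of 10. The list genes together that were lowered by lapatinib in BT474m1 went from 12 to 4 with a pseudocount of 10 and to 7 with a minimum of 100. A larger pseudocount shrinks the change of low genes and a higher minimum leaves fewer genes. The other 105 of 108 counts of receptor genes and 106 of 108 of list genes together stayed within 1.5 times. Of the counts of single lists, 75 moved by more and 1005 did not. Of the 75, 28 moved with a minimum of 100 and 22 with a pseudocount of 10. The median of all genes moved from -0.08 to -0.22 with equal totals scaling for JQ1 in SKBR-3, from -0.11 to 0 with median-of-ratios scaling for both drugs against lapatinib in SKBR-3, and from 0.21 to 0.06 between the DMSO libraries. Depth limits values near the floor of 3 reads, as for ESRRG and HNF4G in SKBR-3, where the changes with JQ1 have intervals that include no change.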
